A study of Danio rerio with 7 samples.

Results

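The genes described here mark the layers of the embryonic heart other than its muscle: the epicardium, the endocardial cushions that become valves, and the outflow tract. 10 genes were chosen by their zebrafish symbols: *tcf21*, *tbx18*, *wt1a* and *wt1b* of the epicardium, *aldh1a2* of retinoic acid synthesis, *has2* and *vcana* of the cushion matrix, *elnb* of the outflow tract, and *fn1a* and *postnb* of the adhesive matrix. Of the 33737 gene IDs in the tables, 8 could be matched to a member. 6 matched by symbol, and *wt1a* and *fn1a* carried the shared symbols WT1 and FN1 and were told from their paralogues by chromosome and neighbouring genes. *vcana* and *postnb* were not analysed here. RNA was sequenced from pools of whole hearts at 96 h after fertilization (hpf), untreated, in 4 *cora* and 3 control libraries. The study describes hearts recovered from embryos, while the sample titles name zebrafish embryos. The *cora* embryos were homozygous for stl325, a nonsense allele of *taf5* from a chemical mutagenesis screen, and the control embryos were their unaffected clutchmates, labelled WT, which can include heterozygous carriers. All carried Tg(cmlc2::gfp), in which the promoter of a myosin light chain gene drives green fluorescent protein in heart muscle cells. Of the control libraries, 1 has no number in its label and is called control 2 as a name only. Nothing in the sources says that the pools of a group came from separate clutches, so the p-values measure the spread between these pools.

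The epicardium is a sheet of mesothelial cells that spreads over the heart from the proepicardium, and its cells later give rise to fibroblasts and mural cells of the vessels. Between the endocardium and the heart muscle lies a matrix rich in hyaluronan and versican, the cardiac jelly, from which the cushions of the valves form. At the arterial pole of the fish heart, the outflow tract becomes the bulbus arteriosus, whose elastic wall dampens the pulse. *taf5* encodes a subunit of TFIID, the complex that places RNA polymerase II at core promoters.

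*taf5* was measured first, as the gene that carries the mutation. The 7 pools had 1.97, 3.10, 3.69 and 4.56 normalized CPM (counts scaled to the TMM-corrected library size) in *cora* replicates 1 to 4, against 8.82, 5.26 and 5.09 in control replicates 1 to 3. All 4 *cora* pools lay below all 3 control pools, with a log2 fold change of -0.94 ± 0.38, where the fold change is *cora* over control and ± is the standard error, but the p from edgeR's quasi-likelihood test, adjusted by Benjamini-Hochberg across the 21632 genes tested, was 0.232. The exons of *taf5* and of *atp5md*, on the opposite strand, overlap by 11 bases. Between 21474488 and 32037220 reads were counted per library, so that 3 counts equal 0.0936 to 0.140 CPM. Genes of the mitochondrial chromosome took 33.7% of the counts in control 1 and 16.8% to 21.8% in the other 6 libraries.

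The content of the pools was checked with marker lists. The summed level of 11 cardiomyocyte markers, in RPKM (reads per kilobase of exon, scaled to library size, as deposited), was 1219, 186, 785 and 178 RPKM in *cora* replicates 1 to 4, against 89.6, 1143 and 2611 RPKM in control replicates 1 to 3. None of the 11 was at 0 in all libraries, and *myl7*, a heart muscle myosin light chain, was at 410, 41.5, 220.3 and 52.5 RPKM in *cora* replicates 1 to 4, against 19.5, 374 and 822 RPKM in control replicates 1 to 3. Heart muscle RNA was thus low in control 1, *cora* 2 and *cora* 4, across both genotypes. All 11 markers had a log2 fold change (*cora* over control) below 0, with a median of -0.96, against -0.03 over all genes. Of the 11, 0 passed an adjusted p of 0.05. Epidermis markers summed to 4882 to 14979 RPKM over the 7 libraries, skeletal muscle markers to 2037 to 9121 RPKM and liver markers to 835 to 9658 RPKM. In control 1 the epidermis list stood at 13703 RPKM and the skeletal muscle list at 6230 RPKM. The pools thus held RNA of tissues other than the heart. Such sums depend on the genes in each list and are not shares of the RNA. The summed levels of the exocrine pancreas and lens lists did not overlap between the groups, while those of the other marker lists overlapped. The exocrine pancreas list was lower in all *cora* pools, at 455 to 989 RPKM in *cora* and 4170 to 18684 RPKM in control pools, with 7 of 7 markers past an adjusted p of 0.05, and the lens list was higher, at 1997 to 27127 RPKM in *cora* and 484 to 768 RPKM in control pools, with 6 of 9. The part of these tissues in the results below was not tested. In such bulk RNA, fewer cells of a type and less RNA per cell cannot be told apart.

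**Figure D1:**
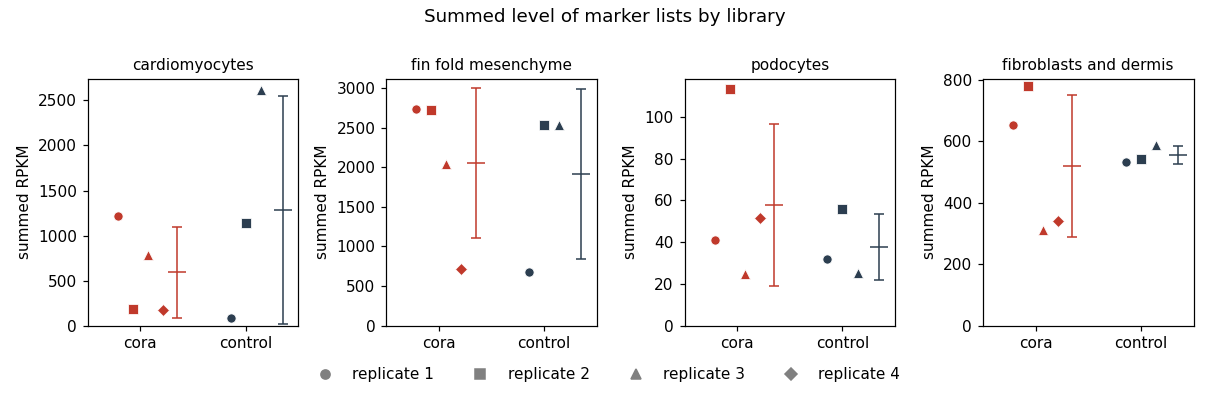
Summed RPKM of 4 marker lists in each library (points, with a symbol for each replicate number) and the mean ± SD of each group (bars), with 4 *cora* pools on the left and 3 control pools on the right of each panel. The cardiomyocyte list runs between 178 and 1219 RPKM in *cora* and between 89.6 and 2611 RPKM in control pools, the fin fold list is low in *cora* 4 and control 1, and the podocyte list is highest in *cora* 2.

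No member passed the adjusted threshold. 0 of 8 members had an adjusted p under 0.05, against 1.97% of all genes tested (426 genes, 186 lower and 240 higher in *cora*), and 2 of 8 had an unadjusted p under 0.05, against 17.7%. The groups did not overlap for 2 of 8 members, *fn1a* and *elnb*, against 17.7% of all genes, and *elnb* passed the filter on low counts only through the control pools. 6 members had a log2 fold change above 0 and 2 below, with a median of 0.39, against -0.03 over all genes. The members were measured less precisely than most genes, since the median standard error of their log2 fold changes was 0.65, against 0.37 over all genes. Without *cora* 4, the count of members past the adjusted threshold was 1, *fn1a*, against 2.98% of all genes, and without the 3 pools low in heart muscle RNA it was also 1, again *fn1a*, against 7.54% of all genes. Without those 3 pools the groups did not overlap for 3 of 8 members, against 56.6%.

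**Figure D2:**
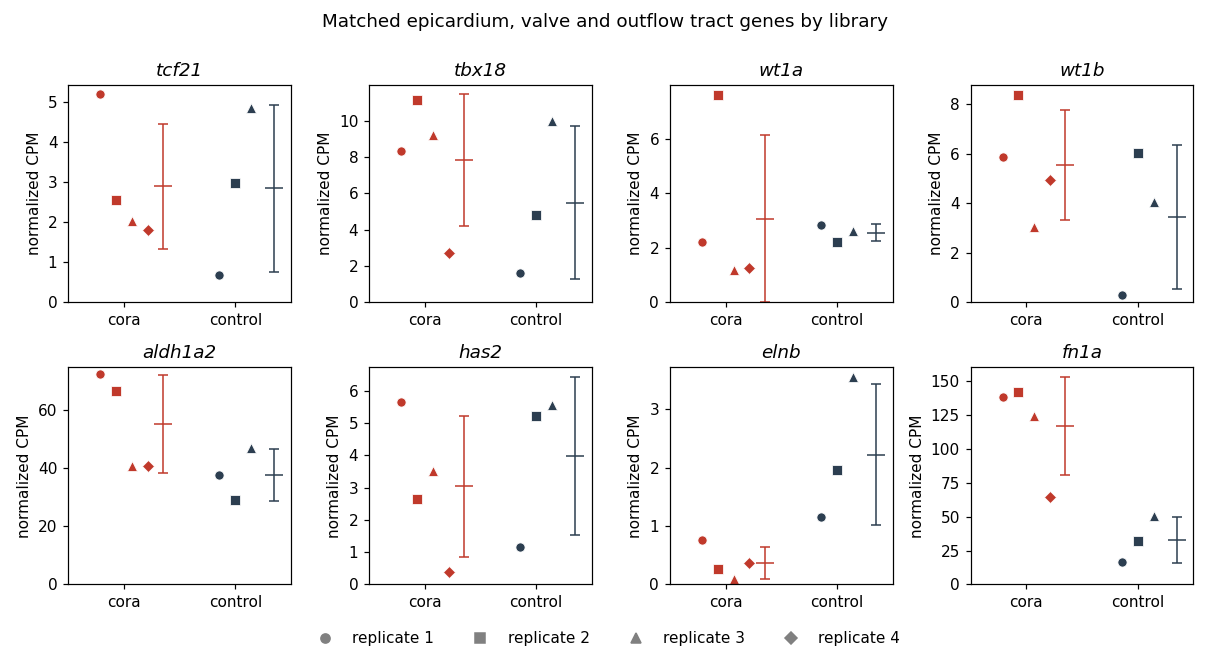
Normalized CPM of the 8 matched members in each library (points, with a symbol for each replicate number) and the mean ± SD of each group (bars), on linear axes that start at 0, with *cora* on the left and control on the right. The 4 *cora* pools lie above the 3 control pools for *fn1a* and below them for *elnb*, and the groups overlap for the other 6 genes.

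*fn1a* showed the clearest difference between the groups. It encodes fibronectin, an adhesive glycoprotein of the matrix that the migrating heart precursors of the zebrafish cross (ENSDARG00000019815, chromosome 9, 15638532 to 15700871, minus strand, in Zv9 coordinates). *fn1a* had 138, 142, 124 and 64.1 normalized CPM in *cora* pools 1 to 4, against 16.5, 32.0 and 50.2 in control pools 1 to 3. All 4 *cora* pools lay above all 3 control pools, as for 9.01% of all genes, and the lowest of them was *cora* 4. The means were 117 ± 36.2 in *cora* and 32.9 ± 16.8 in control pools (SD, n = 4 and 3), a log2 fold change of 1.83 ± 0.42 with a 95% interval of 0.89 to 2.77. The difference missed the threshold by edgeR's quasi-likelihood test, with a p of 0.00166 and a Benjamini-Hochberg adjusted p of 0.0605. Leaving out each library in turn gave log2 fold changes of 1.52 to 2.28, with no overlap in 7 of 7 fits, and the adjusted p ran between 0.0343 without *cora* 4 and 0.222 without control 2.

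Its paralogue *fn1b*, singled out after its values were seen, showed the same order of the groups. *fn1b* (ENSDARG00000006526) stood at 805, 1044, 676 and 770.2 normalized CPM in *cora* replicates 1 to 4, against 335, 350.0 and 461 in control replicates 1 to 3, so that the lowest *cora* pool lay above the highest control pool. This gave a log2 fold change of 1.11 ± 0.25, with an adjusted p of 0.0605 by the same test. *fn1a* made up 14.9, 12.2, 15.8 and 7.81% of the summed RPKM of *fn1a* and *fn1b* in *cora* replicates 1 to 4, against 4.77, 8.52 and 9.97% in control replicates 1 to 3. This share overlapped between the groups at *cora* 4. How reads that match several genes were counted is not given in the sources used here, so reads could be split between such paralogues.

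Of 23 tested partners of fibronectin and periostin, namely integrins, matricellular proteins and small proteoglycans, 0 passed the adjusted threshold, 4 were higher and 1 lower without overlap, against 9.01% higher and 8.73% lower over all genes, and the median log2 fold change was 0.29. By the rule for naming, the highest was *itgb3a*, an integrin beta chain, at 33.6, 46.8, 25.2 and 14.4 normalized CPM in *cora* pools 1 to 4, against 19.8, 8.04 and 11.6 in control pools 1 to 3 (log2 fold change 1.19 ± 0.43, adjusted p = 0.194 by edgeR's test). The lowest was *vtna*, a vitronectin, at 10.2, 14.4, 19.9 and 76.6 normalized CPM in *cora* replicates 1 to 4, against 36.8, 127 and 140.0 in control replicates 1 to 3 (log2 fold change -1.74 ± 0.71, adjusted p = 0.238, and 0.0320 without *cora* 4). Both genes overlapped between the groups. *postna*, the paralogue of the unmatched *postnb*, encodes a matricellular protein of connective tissue and was singled out after its values were seen. It measured 47.9, 37.7, 15.8 and 15.3 normalized CPM in *cora* pools 1 to 4, against 54.5, 52.0 and 68.6 in control pools 1 to 3. All *cora* pools lay below all control pools, with a log2 fold change of -1.0 ± 0.40 and an adjusted p of 0.238 in the same edgeR fit.

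**Figure D3:**
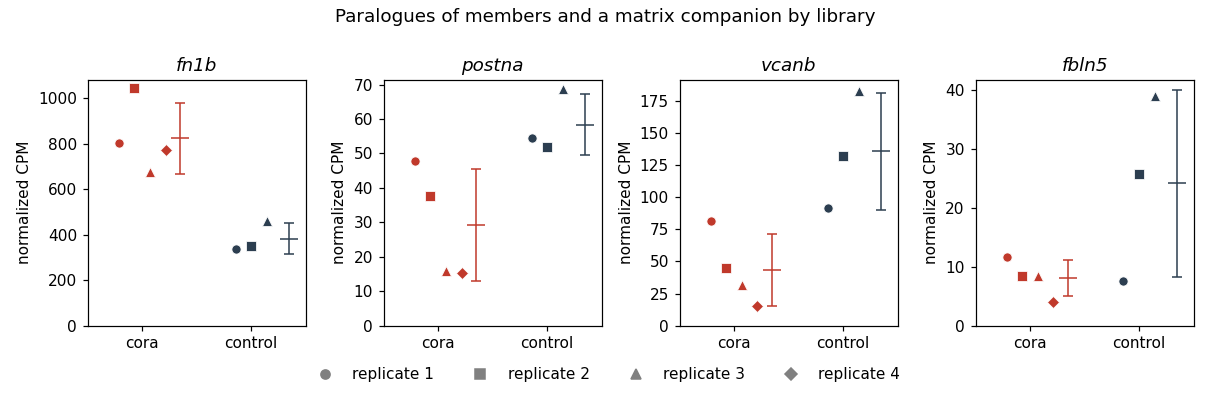
Normalized CPM of *fn1b*, *postna*, *vcanb* and the elastic fibre gene *fbln5* in each library (points, with a symbol for each replicate number) and the mean ± SD of each group (bars), on axes that start at 0, with *cora* on the left and control on the right. The groups do not overlap for *fn1b*, which is higher in *cora* pools, or for *postna* and *vcanb*, which are lower, while *fbln5* overlaps at control 1, which is at 7.57.

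*elnb* lay at the other end, with the most negative fold change of the 8 members. It encodes an elastin, the elastic protein of the arterial wall, and in zebrafish it is known from the bulbus arteriosus (ENSDARG00000069017, chromosome 21, 39488348 to 39528844, minus strand). *elnb* had 0.753, 0.262, 0.0923 and 0.369 normalized CPM in *cora* replicates 1 to 4, against 1.16, 1.96 and 3.55 in control replicates 1 to 3. All 4 *cora* pools lay below all 3 control pools, as for 8.73% of all genes, and *cora* 1 was closest to them. These values rest on 18, 7, 2 and 9 reads in the *cora* libraries and 27, 60 and 117 reads in the control libraries. At least 10 reads were counted in 1 of 4 *cora* and in 3 of 3 control libraries, so the gene passed the filter on low counts through the control group, where it is high, and its values are given as a description. The log2 fold change was -2.58 ± 0.71, with a 95% interval of -4.18 to -0.98, a p of 0.0053 and an adjusted p of 0.102 by edgeR's quasi-likelihood test. Leaving out each library in turn gave -3.17 to -2.05, and 0 of 7 fits passed the adjusted threshold.

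Among 23 tested genes of elastic fibres and outflow smooth muscle, 0 passed the adjusted threshold, and 10 log2 fold changes lay below 0 and 13 above, with a median of 0.15. 2 fibulins stood at the ends named by the rule. *fbln5*, which helps to assemble elastic fibres, had 11.6, 8.37, 8.40 and 3.98 normalized CPM in *cora* pools 1 to 4, against 7.57, 25.8 and 39.1 in control pools 1 to 3 (log2 fold change -1.58 ± 0.52, adjusted p = 0.154 by edgeR's test). It overlapped through control 1 alone, and without that library the log2 fold change was -1.99 and the adjusted p 0.0275. *efemp2a*, also a fibulin, stood at 44.1, 72.4, 33.5 and 33.9 normalized CPM in *cora* replicates 1 to 4, against 6.54, 7.65 and 21.3 in control replicates 1 to 3, without overlap (log2 fold change 1.95 ± 0.47, adjusted p = 0.0743 by the same test). *mfap5*, a microfibril protein singled out after its values were seen, measured 3.85, 3.18, 1.89 and 1.60 normalized CPM in *cora* pools 1 to 4, against 6.20, 6.74 and 9.49 in control pools 1 to 3 (log2 fold change -1.51 ± 0.38, adjusted p = 0.0842). Of the 23 genes, 4 were higher and 1 lower without overlap, against 9.01% higher and 8.73% lower over all genes.

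**Figure D4:**
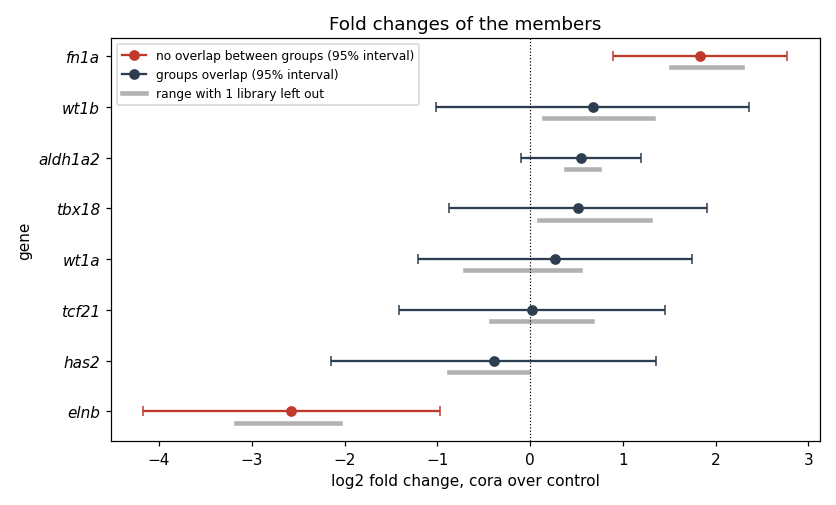
Log2 fold changes (*cora* over control) of the 8 members with their 95% intervals (points and thin bars) and the range of the 7 fits that each leave out 1 library (grey bars). The interval of *fn1a* excludes 0, and those of 6 other genes span it. That of *elnb* also excludes 0, but is only a description, since the gene passed the filter on low counts only through the control pools.

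The cushion matrix gene *has2* varied widely within each group. It encodes the hyaluronan synthase that fills the cardiac jelly (ENSDARG00000036987, chromosome 16, 17749945 to 17767770, minus strand). *has2* had 5.65, 2.65, 3.51 and 0.369 normalized CPM in *cora* replicates 1 to 4, against 1.16, 5.23 and 5.55 in control replicates 1 to 3. *cora* 4 and control 1 were the lowest pools, and the groups overlapped. The log2 fold change was -0.39 ± 0.78, with a 95% interval of -2.14 to 1.36 and an adjusted p of 0.847 by edgeR's quasi-likelihood test. The other hyaluronan synthases, *has1* and *has3*, were at 1.34 normalized CPM or less in all libraries.

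2 of the 3 companion genes that passed the adjusted threshold belonged to the hyaluronan and versican matrix. *cd44a* (ENSDARG00000087863), whose product is a cell surface receptor for hyaluronan, had 156, 115, 218 and 26.6 normalized CPM in *cora* pools 1 to 4, against 13.5, 6.77 and 4.85 in control pools 1 to 3. It rose by 3.95 ± 0.71 on the log2 scale, with an adjusted p of 0.0344 by edgeR's quasi-likelihood test, and all *cora* pools lay above all control pools. *adamts8a* (ENSDARG00000007709), of a family of secreted metalloproteases that includes versican-cleaving enzymes, stood at 9.79, 10.8, 5.49 and 7.67 normalized CPM in *cora* replicates 1 to 4, against 2.07, 2.75 and 2.88 in control replicates 1 to 3, and rose by 1.72 ± 0.34 (adjusted p = 0.0432). Of 28 tested genes of the list, 2 rose, 0 fell and 26 did not pass, with a median of 0.07. Over all genes, 1.97% passed. In the list, 2 genes were higher and 2 lower without overlap, against 9.01% higher and 8.73% lower over all genes. Neither call held without *cora* 1, *cora* 2, *cora* 3, control 2 or control 3, where the adjusted p reached 0.163 for *cd44a* and 0.175 for *adamts8a*. That of *cd44a* was 0.05002 with limma voom, just above the threshold, and that of *adamts8a* was 0.0541 with limma voom, 0.0518 with library size alone and 0.0902 without the 3 pools low in heart muscle RNA.

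*vcanb*, the paralogue of the unmatched *vcana* and singled out after its values were seen, encodes a versican, the large proteoglycan that binds hyaluronan in the cushions. It measured 81.7, 44.9, 32.0 and 15.0 normalized CPM in *cora* pools 1 to 4, against 91.9, 132 and 183 in control pools 1 to 3. All *cora* pools lay below all control pools, with *cora* 1 closest to control 1. For *vcanb* the log2 fold change was -1.65 ± 0.49, with an adjusted p of 0.127 by edgeR's test.

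Of 34 tested regulators of the atrioventricular valve, 0 passed the adjusted threshold, and 7 were higher and 2 lower without overlap, against 9.01% higher and 8.73% lower over all genes. The median log2 fold change was 0.39. *sox9b*, of the SOX family of transcription factors, had the highest value, at 29.0, 33.0, 23.4 and 15.8 normalized CPM in *cora* replicates 1 to 4, against 13.8, 4.61 and 4.58 in control replicates 1 to 3 (log2 fold change 1.73 ± 0.45, adjusted p = 0.0883 by edgeR's test, and 0.0126 without control 1). The lowest was *klf4*, a Kruppel-like factor, at 5.98, 9.68, 2.58 and 3.53 normalized CPM in *cora* pools 1 to 4, against 28.8, 4.51 and 3.97 in control pools 1 to 3 (log2 fold change -1.18 ± 0.72, adjusted p = 0.444). Control 1 alone set *klf4* apart, and the log2 fold change without it was 0.37. *klf2a*, which responds to blood flow in the endocardium and was singled out after its values were seen, had 38.3, 33.0, 23.5 and 30.6 normalized CPM in *cora* replicates 1 to 4, against 65.1, 62.4 and 50.9 in control replicates 1 to 3, without overlap (log2 fold change -0.92 ± 0.22, adjusted p = 0.0664 by the same test).

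The 4 epicardial regulators did not separate the groups. *tcf21* encodes a basic helix-loop-helix factor and is a standard marker of the zebrafish epicardium (ENSDARG00000036869, chromosome 23, 31792848 to 31794275, minus strand). It had 5.19, 2.54, 2.03 and 1.81 normalized CPM in *cora* pools 1 to 4, against 0.688, 2.98 and 4.85 in control pools 1 to 3. The group means were 2.89 ± 1.56 in *cora* and 2.84 ± 2.08 in control pools (SD, n = 4 and 3). The groups overlapped, with the lowest value in control 1, the highest in *cora* 1 and the second highest in control 3. This was a log2 fold change of 0.02 ± 0.64, with a 95% interval of -1.41 to 1.45, so that neither a fall nor a rise of more than 2-fold was excluded.

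*tbx18*, a T-box factor of the proepicardium and the fin buds, lies on the same chromosome (ENSDARG00000036930, chromosome 23, 31346264 to 31356950, plus strand). It stood at 8.32, 11.1, 9.19 and 2.71 normalized CPM in *cora* replicates 1 to 4, against 1.63, 4.81 and 9.98 in control replicates 1 to 3. The lowest pools were control 1 and *cora* 4, and control 3 lay among the highest. Its log2 fold change was 0.51 ± 0.62, with a 95% interval of -0.88 to 1.90.

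*wt1a* and *wt1b* encode zinc finger factors that are found in the epicardium and in the podocytes of the kidney. *wt1a* (ENSDARG00000031420, chromosome 25, 15535281 to 15571217, minus strand) measured 2.22, 7.58, 1.20 and 1.27 normalized CPM in *cora* pools 1 to 4, against 2.84, 2.22 and 2.61 in control pools 1 to 3. *cora* 2 was far above the other pools, and the other 3 *cora* pools lay below the controls, *cora* 1 and control 2 being equal after rounding. The log2 fold change was 0.27 ± 0.65, and without *cora* 2 it was -0.70 with no overlap between the groups. *wt1b* (ENSDARG00000007990, chromosome 18, 44008076 to 44031137, minus strand) had 5.86, 8.37, 3.05 and 4.92 normalized CPM in *cora* replicates 1 to 4, against 0.301, 6.02 and 4.06 in control replicates 1 to 3. Its lowest value, in control 1, rested on 7 reads, and its highest was again in *cora* 2. *wt1b* had a log2 fold change of 0.68 ± 0.75, with a 95% interval of -1.01 to 2.36. The adjusted p of the 4 regulators ran between 0.697 and 0.993 by edgeR's quasi-likelihood test, Benjamini-Hochberg adjusted.

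The markers of podocytes were, like *wt1a*, highest in *cora* 2. The 6 matched markers summed to 40.8, 113, 24.8 and 51.4 RPKM in *cora* replicates 1 to 4, against 31.8, 55.8 and 25.4 RPKM in control replicates 1 to 3, and the order of the other pools differed from that of *wt1a*. None of the 6 markers was at 0 in all libraries, and their part in the *wt1a* value was not tested. Other lists also had their highest summed RPKM in *cora* 2. These were endocardium and endothelium (88.3 RPKM), cartilage (69.4 RPKM), fibroblasts and dermis (780 RPKM) and epidermis (14979 RPKM), so this was not particular to podocytes. In summed normalized CPM, the epidermis list was instead highest in control 1, at 38471 against 31599 in *cora* 2.

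Among 15 tested companions of the epicardium and cushions, *adma* passed the adjusted threshold and 14 did not, against 1.97% of all genes. The median log2 fold change was 0.03. In the list, 2 genes were higher and 0 lower without overlap, against 9.01% higher and 8.73% lower over all genes. *adma* (ENSDARG00000015263) encodes adrenomedullin, a peptide hormone of the vessel wall, and had 203, 238, 132 and 116 normalized CPM in *cora* pools 1 to 4, against 58.1, 55.9 and 50.6 in control pools 1 to 3. It rose by 1.65 ± 0.29 on the log2 scale (adjusted p = 0.034 by edgeR's quasi-likelihood test), and the control pools lay close together, below all *cora* pools. The call was lost without *cora* 1, *cora* 2, *cora* 3, control 2 or control 3, with an adjusted p of up to 0.162. *cxcl12b*, a chemokine, had the lowest fold change named by the rule, at 49.2, 45.4, 28.9 and 38.8 normalized CPM in *cora* replicates 1 to 4, against 40.6, 103 and 104 in control replicates 1 to 3 (log2 fold change -1.03 ± 0.34, adjusted p = 0.158). It overlapped only through control 1, and without that library the adjusted p was 0.0238. Over all 7 companion lists, 3 of 158 tested genes passed (1.90%, against 1.97% of all genes), 3 higher and 0 lower, and the median log2 fold change was 0.13. That count was 0 without *cora* 1, *cora* 2, *cora* 3, control 2 or control 3, where 34 to 208 of all genes passed. It was 7 without *cora* 4, against 2.98% of all genes, and 11 without control 1, against 5.46% of all genes.

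**Figure D5:**
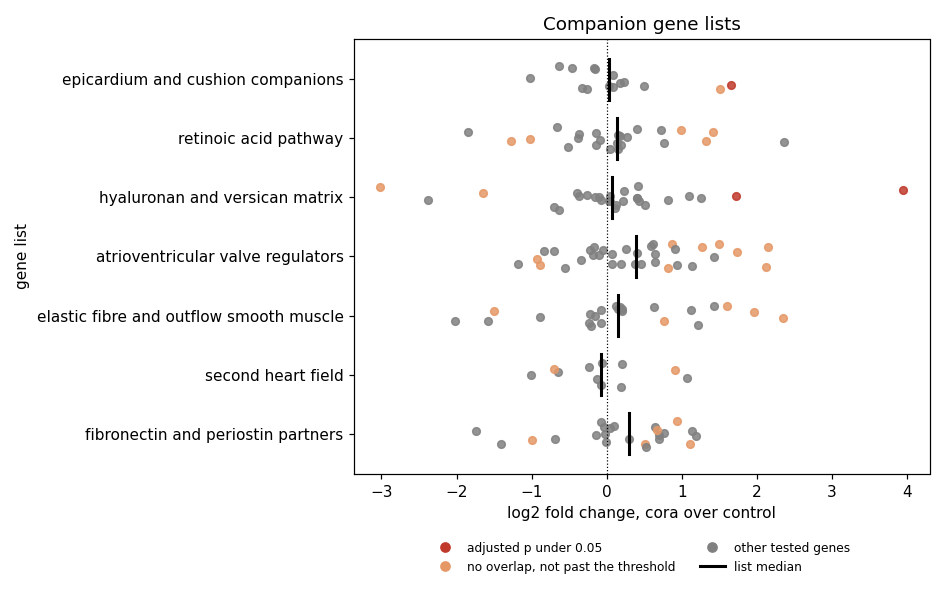
Log2 fold changes (*cora* over control) of the tested genes of 7 companion lists, a point for each gene, with the median of each list as a black bar. Red points passed an adjusted p of 0.05 and orange points did not but had no overlap between the groups. The medians lie between -0.08 and 0.39, and the 3 red points are *adma*, *cd44a* and *adamts8a*.

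*aldh1a2* was the most abundant member per length. It encodes the retinaldehyde dehydrogenase that makes retinoic acid in the embryo and, in the heart, in the epicardium (ENSDARG00000053493, chromosome 7, 31663564 to 31704037, minus strand). *aldh1a2* stood at 72.3, 66.3, 40.6 and 40.5 normalized CPM in *cora* pools 1 to 4, against 37.4, 28.8 and 46.7 in control pools 1 to 3. *cora* 1 and *cora* 2 lay above all controls, and *cora* 3 and *cora* 4 lay between control 1 and control 3. The means were 54.9 ± 16.8 in *cora* and 37.6 ± 8.94 in control pools (SD, n = 4 and 3), a log2 fold change of 0.55 ± 0.29 with a 95% interval of -0.10 to 1.19 and an adjusted p of 0.365 by edgeR's quasi-likelihood test. Its standard error was the smallest of the 8 members.

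Of 24 tested genes of the retinoic acid pathway, 0 passed the adjusted threshold, 3 were higher and 2 lower without overlap, against 9.01% higher and 8.73% lower over all genes, and the median log2 fold change was 0.14. *cyp26a1*, which degrades retinoic acid, had the highest value, at 13.6, 15.2, 14.4 and 3.45 normalized CPM in *cora* replicates 1 to 4, against 4.13, 1.28 and 1.43 in control replicates 1 to 3 (log2 fold change 2.37 ± 0.62, adjusted p = 0.088 by edgeR's test). *cora* 4 and control 1 overlapped, and the adjusted p was 0.0316 without the first and 0.0332 without the second of these pools. *aldh1a3*, another retinaldehyde dehydrogenase, had the lowest value, at 2.51, 3.14, 0.323 and 1.48 normalized CPM in *cora* pools 1 to 4, against 7.31, 1.67 and 11.3 in control pools 1 to 3 (log2 fold change -1.85 ± 0.75, adjusted p = 0.239). *rdh10b*, a retinol dehydrogenase that acts a step before *aldh1a2* and was singled out after its values were seen, measured 50.6, 41.9, 34.0 and 22.9 normalized CPM in *cora* replicates 1 to 4, against 10.2, 14.5 and 17.1 in control replicates 1 to 3. It did not overlap between the groups (log2 fold change 1.42 ± 0.31, adjusted p = 0.0547 by the same test, and 0.0286 without *cora* 4).

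The second heart field list, of progenitors that add cells to both poles of the heart, had 11 tested genes, of which 0 passed the adjusted threshold. Its median log2 fold change was -0.08. Without overlap, 1 gene was higher and 1 lower, against 9.01% higher and 8.73% lower over all genes. *nkx2.5*, a homeodomain factor of heart precursors and heart muscle, had 9.79, 1.76, 5.31 and 3.49 normalized CPM in *cora* pools 1 to 4, against 0.559, 9.22 and 20.7 in control pools 1 to 3 (log2 fold change -1.0 ± 0.90, adjusted p = 0.618 by edgeR's test). Its lowest values were in control 1, *cora* 2 and *cora* 4, the pools that were low in heart muscle RNA. *fgf10a*, a growth factor, had 21.8, 36.9, 20.7 and 7.10 normalized CPM in *cora* replicates 1 to 4, against 4.56, 13.8 and 12.5 in control replicates 1 to 3 (log2 fold change 1.07 ± 0.54, adjusted p = 0.347).

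Levels of the members were compared with each other as RPKM, averaged over the 7 libraries. The order was *aldh1a2* at 17.6, *fn1a* at 9.29, *wt1b* at 3.48, *tbx18* at 2.98, *tcf21* at 2.78, *wt1a* at 1.56, *has2* at 0.772 and *elnb* at 0.189 RPKM. *aldh1a2* exceeded *fn1a* in 7 of 7 libraries, *fn1a* exceeded *wt1b* in 6, and *has2* exceeded *elnb* in 7. The neighbours *wt1b* and *tbx18*, and *tbx18* and *tcf21*, exceeded each other in 4 and 3 libraries, so these 3 genes could not be ranked.

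Some members varied together between pools of a genotype. No such correlations are given here for pairs of other genes, so this cannot be called particular to the members. After the group means were removed, the correlation of log2 normalized CPM over the 7 libraries had a median of 0.51 over the 28 pairs of members, 8 pairs were above 0.7 and 0 below 0, as a description of points that share libraries. The highest was 0.99 for *tbx18* and *fn1a*, followed by 0.89 for *has2* and *fn1a* and 0.87 for *tbx18* and *has2*. Without control 1 these 3 were 0.98, 0.86 and 0.82, and the median over all pairs was 0.53. Some pairs with *wt1b* fell without control 1. The correlation was then 0.18 in place of 0.82 for *tcf21* and *wt1b*, and 0.045 in place of 0.68 for *wt1b* and *fn1a*. It was 0.0062 in place of 0.65 with *tbx18*, 0.021 in place of 0.51 with *has2*, and 0.37 in place of 0.55 with *elnb*. Other pairs with *wt1b* rose, to 0.79 from 0.18 with *wt1a* and to 0.42 from 0.12 with *aldh1a2*. The correlation of *tbx18* and *elnb* was -0.055 without control 1, in place of 0.29. *cora* 4 and control 1 were the lowest pools of their groups for *tbx18*, *has2* and *fn1a*. They were also the lowest of their groups for the cardiomyocyte list in summed RPKM, at 178 RPKM in *cora* 4 and 89.6 RPKM in control 1. *cora* 2 was close, at 186 RPKM. In summed normalized CPM, *cora* 2 was the lowest *cora* pool of that list, at 294 against 327 in *cora* 4. So they were in RPKM for the endocardium and endothelium list, at 55.4 RPKM in *cora* 4 and 40.8 RPKM in control 1. *cora* 3 was close, at 57.1 RPKM. In summed normalized CPM, *cora* 3 was the lowest *cora* pool of that list, at 135 against 146 in *cora* 4. For the fin fold mesenchyme list, *cora* 4 and control 1 were the lowest of their groups in both units. Its 8 matched markers summed to 2730.4, 2722, 2045 and 721 RPKM in *cora* replicates 1 to 4, against 682, 2532 and 2537 RPKM in control replicates 1 to 3. Its defining markers *and1* and *and2*, actinodins of the fin fold, were the highest of the list at 261 to 1590 RPKM in all libraries. For *fn1a*, *cora* 4 was at 64.1 normalized CPM and the highest control at 50.2. The parts of the fin fold, heart muscle and endothelium in the values of *tbx18*, *has2* and *fn1a* were not tested.

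The library control 1 was the lowest control for 6 of 8 members and the lowest of the 7 libraries for 4, against 43.8% and 20.2% of all genes tested. Without control 1 the groups still did not overlap for *fn1a* and *elnb*, as for 37% of all genes. In that fit 0 of 8 members passed the adjusted threshold, against 5.46% of all genes. The adjusted p by edgeR's quasi-likelihood test was 0.0568 for *fn1a*. For *elnb*, which passed the filter on low counts through the control pools, it was 0.0583, given as a description.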

How the data were processed

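The authors deposited 1 table for each of 7 heart pools, with exons of 33737 Ensembl gene IDs, raw read counts, CPM (counts scaled to library size) and RPKM (CPM per kilobase of exon). The deposited counts are whole numbers without normalization, the deposited CPM and RPKM use library size alone, and the roles of the tools in the submitters' processing notes (STAR 2.0.4b, Subread, featureCounts 1.4.5, edgeR, limma) are not given in the sources used here. The build is not named either, and unplaced sequences are called Zv9 scaffolds, so positions are Zv9. The counting is not stated to use strand. RPKM served to compare levels between genes, to sum marker lists, to give single marker genes by library and for the share of *fn1a* beside *fn1b*. Deposited CPM was not used beyond checks.

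Symbols came from a table that matched 21939 IDs (65.0%). Where zebrafish paralogues shared a human symbol, an ID was named if it lay on the chromosome of that paralogue in GRCz12tu and shared at least 2 of its neighbours among 10 genes on each side, a rule adopted after the tables were seen. 297 of 364 list entries matched, 93 of them in this way. Counts were fitted in R 4.3.3 with edgeR 4.0.16 (TMM scaling, filterByExpr by genotype, glmQLFit, glmQLFTest, no covariate), with Benjamini-Hochberg adjustment over the 21632 genes tested. The quasi-likelihood F statistic gave standard errors and 95% intervals, and the fit was tested on simulated data. Alternatives were DESeq2 1.42.0 (test or size factors), library size alone, upper quartile scaling, library sizes without the mitochondrial chromosome, limma 3.58.1 (voom, with or without sample quality weights), no filter, a minimum of 10 counts in each library, leaving out single libraries, and the number shared in the labels as a block. The members and lists were chosen with earlier results of these data known. Named companions were those past the threshold (at most 4 per list) or, with fewer than 2, the lowest and highest fold change among genes with a mean log2 CPM of at least 1. Others are marked where named. The values of 1 marker gene are not reported here. No sequence is printed, since the sources used here held none for these genes.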

Additional observations from a re-analysis of the deposited data

Results flagged for a closer look

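*wt1a* in the *cora* pools was singled out because *cora* 2 stood far from the other 3. Its values were 2.22, 7.58, 1.20 and 1.27 normalized CPM in *cora* replicates 1 to 4, and the gap of *cora* 2 to the nearest pool was 0.841 of the whole range of the group, above Dixon's 95% critical value for 4 samples. This was 1 of 23 such tests in the *cora* pools, and chance alone marks about 1 in 20 groups. The podocyte list was also highest in *cora* 2, at 113 RPKM. So were the summed RPKM of the endocardium and endothelium, cartilage, fibroblast and dermis, and epidermis lists. In summed normalized CPM, the epidermis list was instead highest in control 1. The part of these tissues in the value was not tested.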

How the results depend on the processing

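Of the 8 members, *fn1a*, *elnb*, *aldh1a2* and *tbx18* kept their direction under every alternative in which they were tested, with log2 fold changes of 1.52 to 2.28, -3.17 to -2.05, 0.38 to 0.74 and 0.093 to 1.29. *elnb* was not tested with at least 10 counts in every library, where 5 members remained and 1 had no overlap. The share of all genes without overlap in that fit was not counted. The adjusted p of *fn1a* ran between 0.000618 and 0.222 over all alternatives and that of *elnb* between 0.00993 and 0.641. The count of members past the adjusted threshold was 0 in the reported fit, 2 with the DESeq2 test, 2 with voom and sample quality weights, 1 without a filter on low counts, 1 without the 3 pools lowest in cardiomyocyte markers (control 1, *cora* 2 and *cora* 4, left out by a choice made after seeing the data), and 0 to 1 when each library was left out. Each fit with 1 call called *fn1a*, and the 2 fits with 2 calls called *fn1a* and *elnb*. Since *elnb* passed the filter on low counts through the control pools, its calls and adjusted p are given only as a description. Of 21632 genes, 426 passed in the reported fit, 1800 with the DESeq2 test and 3113 with voom and sample quality weights. The count was 508 of 28898 genes without a filter and 1626 of 21558 without those 3 pools. When each library was left out, it ran from 34 of 22061 without control 2 to 1207 of 22120 without control 1. The corresponding counts of companion genes were 3, 20, 33, 4, 16 and 0 to 11. The causes were not tested.

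The log2 fold change of *tcf21* turned to -0.0098 with upper quartile scaling, -0.22 with sample quality weights, -0.42 without *cora* 1 or without control 1 (0.67 without control 3 at the other end) and -0.11 without the 3 pools. That of *wt1a* turned to -0.12 with voom, -0.16 with sample quality weights, -0.70 without *cora* 2 (0.53 without *cora* 3) and -0.49 without the 3 pools, and that of *wt1b* to -0.17 without the 3 pools. *klf4* turned to 0.038 with sample quality weights, 0.37 without control 1 (-1.62 without *cora* 2) and 0.024 without the 3 pools, and *nkx2.5* to 0.069 without control 3 (-1.55 without control 1). None of these reversed values passed the threshold. Sums of normalized CPM in place of RPKM kept the direction of all 14 marker lists. The order of the pools changed for some lists, among them cardiomyocytes, endocardium and endothelium, and epidermis.

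With the replicate number as a block, in *cora* and control replicates 1 and 3 only, 0 genes and 0 companion genes passed the adjusted threshold, against 2101 genes at an unadjusted p under 0.05. The replicate block turned *wt1a* to -0.73, *has2* to 0.77 and *nkx2.5* to 0.86, and gave *fn1a* 2.18 (adjusted p = 0.212) and *elnb* -2.61 (adjusted p = 0.641) by edgeR's quasi-likelihood test. Deviations of libraries with the same number correlated at 0.0576 and 0.0316. Libraries with different numbers were not compared in this way, so these values cannot show whether the numbers pair the pools. The reported fit used no pairing. These numbers are those of the sample titles, and the names of the deposited tables number control 2 and control 3 the other way round, so the block may join the wrong libraries. Counts were below 10 in at least 1 pool for *elnb*, *has2* and *wt1b*, which limits their precision.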

Other observations

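The pattern of each of the 3 members with the largest absolute fold change was compared with those of 11981 genes of a mean log2 CPM of at least 2 and a symbol, by Pearson's correlation of log2 normalized CPM over the 7 libraries, as a description. For *fn1a* the nearest were si:dkey-7j14.6 (0.99), TOR1B (0.99) and NPR3 (0.98), and 199 genes were above 0.9. For *elnb* they were *rltgr*, PCSK2 and DNPH1 (0.98 each), with 162 genes above 0.9. For *wt1b* they were TRIP13, SLC22A8 and ATG4A (0.99 each), with 110 genes above 0.9. Control 1 lay far below the other pools for *wt1b*, at 0.301 normalized CPM from 7 reads. This library alone can set such correlations, which were not computed without it. The symbols in capitals are those of the human genes in the symbol table.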
